A study of Danio rerio with 4 samples.

Results

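The 5hmC peaks described here lie on chromosome 4 of the zebrafish genome (GRCz11) and start at or beyond 30 Mb, a stretch usually counted to the long arm of this chromosome. They were taken by position alone from both deposited peak lists, and comprise 1331 control peaks and 577 peaks called after knockdown, together 1908 of 313306 peaks. No file gives the centromere, so "the arm" below means the stretch from 30 Mb to the last peak end, 48.1 Mb in length. The embryos were collected 48 hours after fertilisation (48 hpf) and carried either a control morpholino or morpholinos against both tet2 and tet3. A morpholino is an antisense oligomer that blocks a transcript for a limited time, so both groups are injected embryos and neither is a mutant line. The labels do not state strain, dose or the number of embryos per library, and the protocol speaks of the head while the tissue label says embryo. DNA was sheared by ultrasound and enriched for 5hmC by immunoprecipitation (hMeDIP), with 1 pull-down and 1 input per group, 4 libraries in all. Each group therefore has a single peak list, differences have no replicate check, and none was tested.

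5-hydroxymethylcytosine (5hmC) arises when TET dioxygenases oxidise 5-methylcytosine, and it marks an early step of DNA demethylation as well as a fairly stable base in differentiated tissue, the nervous system above all. In zebrafish, Tet2 and Tet3 make most of the 5hmC of the embryo. The long arm of zebrafish chromosome 4 is a known exception among the chromosomes of this species: it is largely heterochromatic, replicates late, is rich in repeats and in multicopy gene families such as NLR immune receptors and zinc finger genes, carries 5S ribosomal RNA genes, and holds the sex-linked region of wild strains near its end. These features are background and were not measured here. No sequence is printed and no gene is named for the peaks, because no genome or annotation of GRCz11 was used here.

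Few 5hmC peaks were called on the arm in either group. It held 27.7 control peaks per Mb, against 223 per Mb in the first 30 Mb of the chromosome and 173 per Mb on the 24 other chromosomes. After knockdown it held 12 peaks per Mb, against 79.6 and 61.2. The arm was thus 8.05 times sparser than the rest of chromosome 4 in control and 6.63 times sparser after knockdown. Control peaks covered 526 kb or 1.09% of the arm, against 11.2% of the first 30 Mb. Peaks called after knockdown covered 187 kb or 0.390%, against 2.85%. Control peaks outnumbered those after knockdown by 2.31 on the arm, by 2.80 in the first 30 Mb and by 2.82 ± 0.118 (SD) over the other 24 chromosomes, where the lowest ratio was 2.59. Peak numbers depend on depth, and read totals are not given. At the summits, solved control pileups stood over a background of at least 7.53 fragments. Those after knockdown, at an estimated scale of 0.474, stood over at least 2.81. Scaling and fragment length can also affect these backgrounds, so they do not measure depth. Fewer 5hmC-bearing bases and fewer usable reads on the arm cannot be told apart in these lists, and the sources used here do not state how reads matching several places were treated.

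In windows of 1 Mb the sparse state began before the boundary and held along most of the arm. The windows from 25 to 30 Mb held 110, 56, 127, 76 and 20 control peaks, while the 25 windows before them held between 164 and 360. The first control peak of the arm lay at 4:30043230-30043534 with a fold of 3.05 and the last one before it at 4:29995649-29996096 with a fold of 3.52, so the boundary fell within a sparse stretch. The corresponding peaks after knockdown lay at 4:30148938-30149181, with a fold of 4.86, and at 4:29936059-29936272, with a fold of 4.36. Over the 48 full windows of the arm, control counts ran from 8 to 114 with a median of 23.5, and counts after knockdown from 1 to 41 with a median of 9. No window was empty in either list. Of the 1258 full windows on the other chromosomes, 3 had as few control peaks as the median arm window, and 17 had as few peaks after knockdown. Of the 48 sparsest windows among all 1336, the arm supplied 38 in control and 28 after knockdown.

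**Figure D1:**
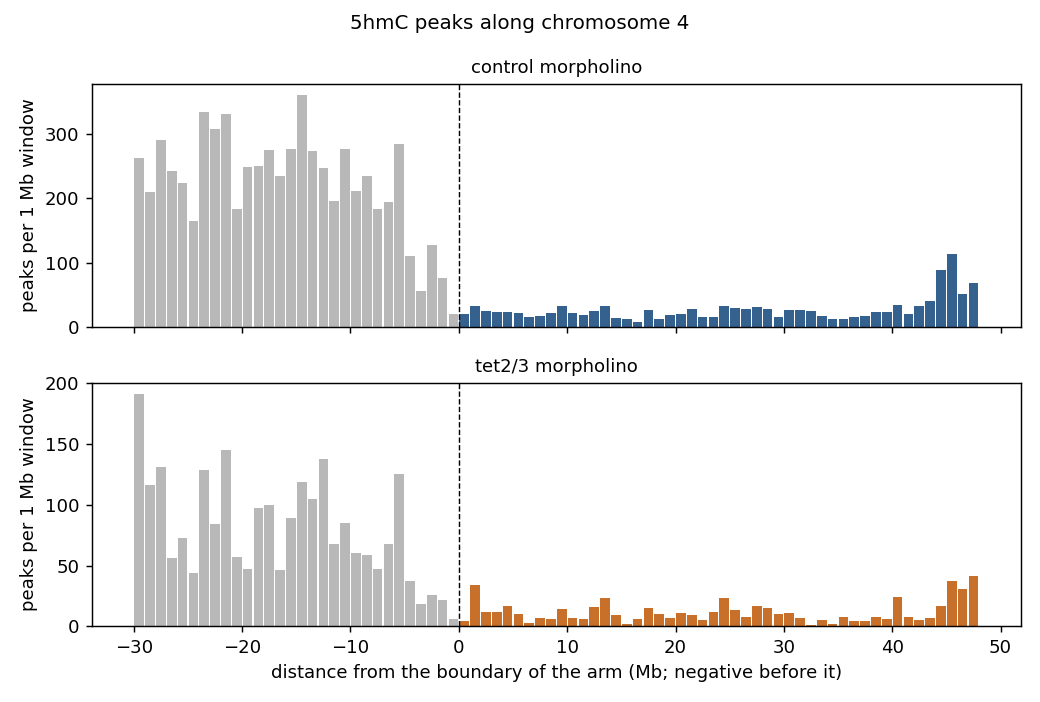
Peaks per 1 Mb window along chromosome 4 in control morpholino (top) and tet2/3 morpholino embryos (bottom), by distance from the boundary at 30 Mb; each bar is 1 full window, grey before the boundary and coloured on the arm, and the vertical scales differ. Counts fall before the boundary, stay at 35 control peaks or fewer for 43 windows, and rise in the last 5 full windows to between 41 and 114.

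The arm fell into a long sparse stretch and a denser end. From 30 to 73 Mb, a division chosen after the counts had been seen, the 43 windows held between 8 and 35 control peaks. The last 5 full windows, from 73 Mb, held 41, 88, 114, 51 and 68 control peaks and 7, 17, 37, 31 and 41 peaks after knockdown. The windows with most control peaks were those starting at 75, 74 and 77 Mb, with 114, 88 and 68. After knockdown they were those starting at 77, 75 and 31 Mb, with 41, 37 and 34. Peaks numbered 22.3 per Mb in control and 10.1 per Mb after knockdown up to 73 Mb, and 73.5 and 27.7 per Mb beyond it. The overlapped share of control peaks was 29.2% in the sparse stretch and 29.1% in the end part. Peaks without a control partner made up 33.3% (95% CI 29.0 to 37.8) of those called after knockdown in the sparse stretch and 17.0% (11.7 to 24.1) in the end part. Window counts of the lists rose together over the 48 windows (Pearson 0.701, Spearman 0.646), less closely than over the 1258 windows of other chromosomes (0.819 and 0.870). From 30 to 73 Mb they were 0.633 and 0.590. Control counts ran from 8 to 114 over the arm windows and from 11 to 438 elsewhere, and the part of this narrower range was not tested. These correlations are descriptions, since windows share mappability, base composition and the same pair of libraries.

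Median widths on the arm were below those of the first 30 Mb and of other chromosomes in both lists. The median control width was 337 bp (order-statistic 95% interval 329 to 346) on the arm, 419 bp in the first 30 Mb and 394 bp on other chromosomes. After knockdown the medians were 240 bp (221 to 250), 301 bp and 284 bp. In the sparser windows from 25 to 30 Mb the medians were 361 bp in control and 255 bp after knockdown. In the end part of the arm they were 374 and 248 bp. Only 25 control peaks of the arm, or 1.88%, exceeded 1 kb, against 5.61% in the first 30 Mb and 5.41% on other chromosomes. After knockdown 13 did, or 2.25%, against 1.80% and 2.54%. The widest control peak of the arm, at 4:32458554-32461475, spanned 2922 bp with a fold of 4.60 and held 4 peaks called after knockdown. The widest peak after knockdown, at 4:77959015-77960636, spanned 1622 bp with a fold of 7.09 and lay within the control peak at 4:77958376-77960614 but for its last bases. The shortest intervals were 222 bp in control and 132 bp after knockdown, so widths are compared only within a list.

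Peaks on the arm were far apart, with median gaps below even spacing, as in the other parts. The median gap to the next peak was 16.8 kb in control, with quartiles of 3.92 and 44.5 kb, where even spacing would have given 35.7 kb. After knockdown it was 20.8 kb, with quartiles of 1.80 and 96.3 kb, against 83.0 kb for even spacing. In the first 30 Mb the median gaps were 2.01 kb and 4.33 kb, against 3.98 and 12.2 kb for even spacing. On other chromosomes they were 2.63 and 5.60 kb, against 5.32 and 16.0 kb. Peaks placed at random would also have a median gap below even spacing, so that alone does not show bunching. Random placement would give window counts a variance near their mean. On the arm the variance over 1 Mb windows was 12.9 times the mean in control and 7.03 times after knockdown. From 30 to 73 Mb the factors were 2.12 and 4.44. They were 30.1 and 24.1 in the first 30 Mb, and 25.96 and 27.5 on other chromosomes. Window counts were thus more uneven than under random placement in each part, and the cause was not tested. A control peak had no other control peak within 10 kb in 40.2% of cases on the arm, 2.12% in the first 30 Mb and 4.01% on other chromosomes. After knockdown the shares were 36.4%, 11.7% and 18.6%. Short gaps went the other way in the lists. Gaps of at most 1 kb made up 11.4% of control gaps on the arm against 23.2% before it, and 19.97% of gaps after knockdown on the arm against 13.2% before it and 14.0% on other chromosomes. Peaks at most 1 kb from a neighbour of the same list made up 20.9% of control peaks and 34.1% of peaks after knockdown on the arm, against 38.8% and 23.1% in the first 30 Mb. The groups of this kind with most control peaks held 5 at 4:77938373-77942071, 4 at 4:72725971-72729097 and 4 at 4:75480685-75483444. After knockdown they held 6 at 4:77993093-77996844, 5 at 4:34552367-34554509 and 5 at 4:51251742-51254564.

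Control peaks on the arm were weaker at the median than in the first 30 Mb or on other chromosomes. Folds of peaks after knockdown were close to those elsewhere. The fold, the authors' ratio of pileup to local background at the summit, had a control median of 3.39 on the arm, 3.99 in the first 30 Mb and 3.81 on other chromosomes. After knockdown the medians were 4.16, 4.04 and 4.11. In the sparser windows from 25 to 30 Mb the control median was 3.52, and in the end part of the arm 3.63. A control fold of 6 or more was found in 86 peaks of the arm, or 6.46%, against 18.5% in the first 30 Mb and 16.4% on other chromosomes. After knockdown 74 peaks reached it, or 12.8%, against 10.6% and 13.0%. Windows of other chromosomes with at most 60 control peaks, a limit chosen after the values had been seen, were set beside the arm. Those of up to 35 control peaks held 247 in all and those of 36 to 60 held 1726. Together they had 654 control peaks under a fold of 3, 131 at 6 to 8 and 52 at 8 or more. The 1331 control peaks of the arm included 460, 55 and 31. Folds under 3 thus made up a similar part of both, and are not shown to be particular to the arm. Folds of 6 or more made up a smaller part on the arm. Folds of single peaks are not compared between the lists, which differ in scaling and lowest background.

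The local background at the summits was worked out for each peak from its deposited fold and p-value. It had more low and more very high values on the arm than in the first 30 Mb or on other chromosomes. It exceeded the lowest background of its list by more than 2% at 53.0% of control peaks on the arm, 74.6% in the first 30 Mb and 71.3% on other chromosomes. After knockdown the shares were 50.4%, 76.8% and 72.9%. In the sparser windows from 25 to 30 Mb they lay in between, at 60.7% in control and 67.9% after knockdown. A background of 3 times the lowest or more occurred at 8 control peaks of the arm, or 0.601%, against 0.0898% and 0.148%. After knockdown it occurred at 12 peaks, or 2.08%, against 0.0838% and 0.545%. The highest control background of the arm, 75 fragments, lay under the peak at 4:30249273-30249649, which had a pileup of 165 fragments, a fold of 2.18 and no partner after knockdown. The highest after knockdown, 13.0 scaled fragments, lay under the peak at 4:54669432-54669580, which had a fold of 2.64 and met a control peak. What part background has in the results below was not tested, and its values are given for some of them.

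With the lists as deposited, the overlapped share of control peaks on the arm was near that elsewhere, but many peaks called after knockdown on the arm had no control partner. Of the 1331 control peaks, 388 or 29.2% (95% CI 26.8 to 31.6) shared at least 1 bp with a peak after knockdown, near the 30.6% over all 25 chromosomes. With the control list shortened to the strongest peaks by q-value, to the length of the other list, the share was 47.9% of 288 on the arm, below the 57.0% of the first 30 Mb and the 57.9% of other chromosomes. Of the 577 peaks after knockdown, 169 or 29.3% (25.7 to 33.1) had no control partner, against 9.45% over all 25 chromosomes. The share was 5.82% in the first 30 Mb and 9.41% ± 1.03 (SD) over the 24 other chromosomes, of which chromosome 1 had the highest at 11.6%. When the list after knockdown was moved by 20 or 50 kb to either side, 1.84% of the control peaks of the arm were still met, against 9.48% in the first 30 Mb and 7.79% on other chromosomes. Of the peaks after knockdown, 4.38% met a control peak after the moves, against 27.3% and 22.3%. Overlap in place was 15.8 times that after the moves for control peaks of the arm and 3.93 times on other chromosomes. For peaks after knockdown the factors were 16.2 and 4.07. These factors rise as the moved share falls, and that share was low in sparse windows elsewhere too. In windows of other chromosomes with at most 35 control peaks, 22.7% of control peaks were overlapped in place and 0.911% after the moves. The high factors are therefore not shown to be particular to the arm. With the moved share removed, 27.8% of control peaks were overlapped on the arm, against 24.7% in the first 30 Mb and 24.8% ± 0.991 (SD) over the other chromosomes, whose highest was 26.8%. Peaks after knockdown without a partner then came to 30.6% on the arm, 8.00% in the first 30 Mb and 12.1% ± 1.16 (SD) elsewhere. No test of these differences was made, because peaks of 1 library are not replicates, and the intervals cover counting error only.

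**Figure D2:**
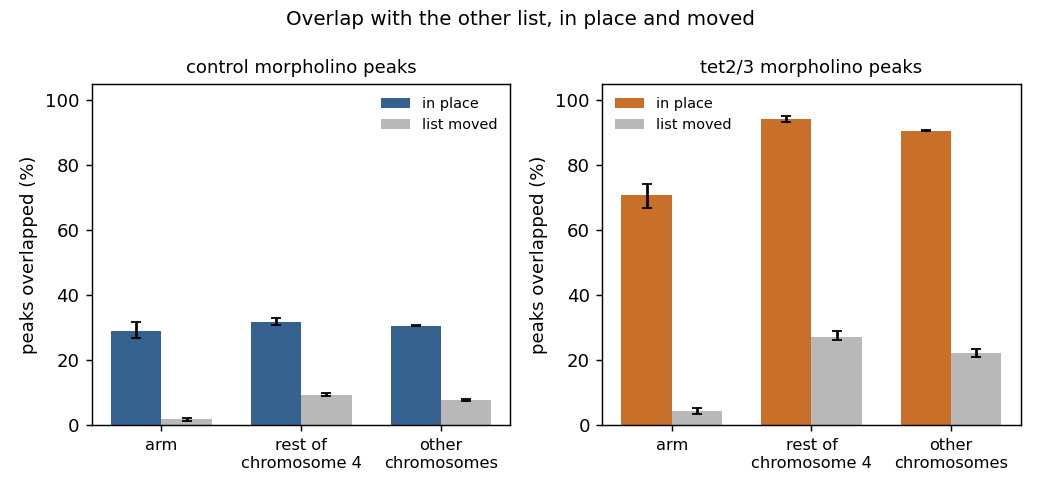
Share of control peaks (left) and of tet2/3 morpholino peaks (right) sharing at least 1 bp with the other list, in place (coloured, bars are 95% Wilson intervals) and with the tet2/3 morpholino peaks shifted by 20 or 50 kb (grey, mean of 4 moves with their range). On the arm the moved shares are 1.84% and 4.38%, and the share of tet2/3 morpholino peaks met in place is 70.7%, below the 94.2% and 90.6% of the other parts.

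Where peaks of the lists met on the arm, they met closely. The median distance between a summit after knockdown and the nearest control summit was 48 bp on the arm over 408 overlapping peaks, 77 bp in the first 30 Mb and 69 bp on other chromosomes. It was at most 100 bp for 72.8% of these peaks on the arm, against 61.1% and 63.9%. Widths were also lower on the arm, and their part in these distances was not tested. The median fold was 3.87 for overlapped control peaks of the arm and 3.18 for the others, and the median widths were 423.5 bp and 308 bp. These differences were larger elsewhere. The folds were 5.58 and 3.52 in the first 30 Mb and 5.39 and 3.42 on other chromosomes. The widths were 628 and 359 bp, and 580 and 342 bp. Of the 388 overlapped control peaks of the arm, 22 met more than 1 peak after knockdown. Elsewhere the share was similar, with 124 of 2130 in the first 30 Mb and 3659 of 66922 on other chromosomes. Overlapped peaks after knockdown had a median fold of 4.36 and a width of 260.5 bp, and those without a partner 3.92 and 204 bp.

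Peaks after knockdown without a control partner mostly lay within 10 kb of a control peak, less often on the arm than on other chromosomes. Their median distance to the nearest control peak was 2.38 kb on the arm and 1.39 kb on other chromosomes. The median gap between neighbouring control peaks of the arm, 16.8 kb, is an unlike measure. Whether they lay closer than spacing alone would give was not tested. On the arm 41 of the 169, or 24.3%, lay within 500 bp of a control peak, close to the 26.02% on other chromosomes, and 133 or 78.7% lay within 10 kb, against 93.0%. Control peaks without a partner lay a median of 35.1 kb from the nearest peak after knockdown on the arm and 5.61 kb on other chromosomes. Of the 943 such control peaks on the arm, 209 lay more than 100 kb away. In the first 30 Mb 23 of 4553 did, and on other chromosomes 1161 of 151655.

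Equally sparse windows elsewhere had a similar share of peaks without a control partner. The limits of the window classes, and of the fold and background classes below, were chosen after the values had been seen. The limit of 35 was the highest control count of the arm's windows up to 73 Mb. Control peaks define the window classes and also decide which peaks lack a partner, so the classes and the share are not independent. On the other chromosomes the share without a partner rose as control peaks thinned out, from 7.46% in windows of over 200 control peaks to 11.6% in windows of over 100 and up to 150 and 22.7% (19.2 to 26.6) in windows of 36 to 60. In the 10 windows with at most 35 control peaks, spread over 6 chromosomes, 25 of 83 peaks after knockdown or 30.1% (21.3 to 40.7) had no partner. The 43 arm windows of that density gave 145 of 436, or 33.3% (29.0 to 37.8). Their moved shares were also close, at 2.71% elsewhere and 2.35% on the arm. The high share on the arm is therefore not shown to be particular to it. Control peaks of these windows were overlapped in 29.2% (26.4 to 32.1) on the arm and 22.7% (17.9 to 28.3) elsewhere. The ratio of control peaks to peaks after knockdown was 2.19 on the arm and 2.98 elsewhere in such windows.

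**Figure D3:**
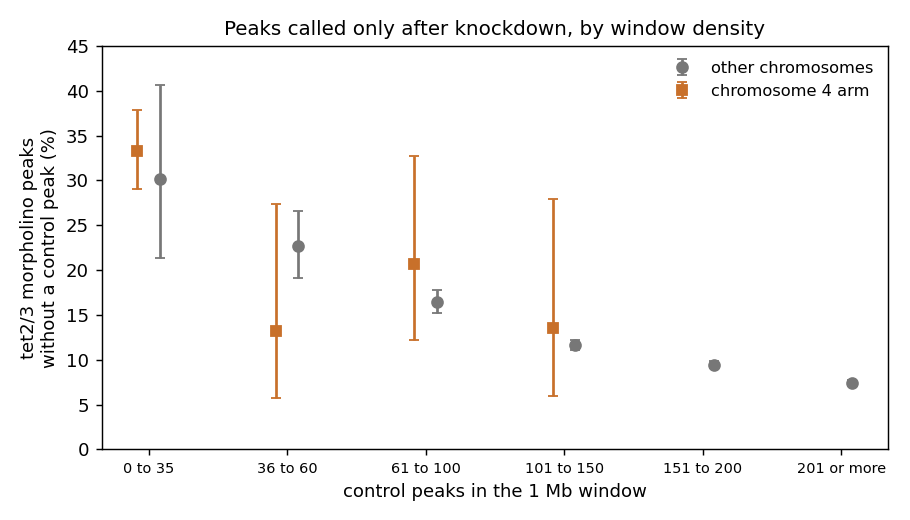
Share of tet2/3 morpholino peaks without a control peak (vertical axis, %) by the number of control peaks in their 1 Mb window, for the arm (squares) and the other chromosomes (circles), with 95% Wilson intervals. The share elsewhere climbs from 7.46% in the densest windows to 30.1% in the sparsest, where the arm gives 33.3%; the arm has no full window above 114 control peaks.

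Weak control peaks of the arm were met more often than weak control peaks elsewhere. Below a control fold of 3, 85 of 460 or 18.5% (15.2 to 22.3) were overlapped on the arm, against 9.05% in the first 30 Mb and 9.67% on other chromosomes. In windows of the other chromosomes with at most 60 control peaks, a wider limit than the 35 above, 57 of 654 or 8.72% (6.79 to 11.1) were overlapped. These windows also held fewer peaks after knockdown for each control peak. The ratio of control peaks to peaks after knockdown was 2.98 in those of up to 35 control peaks and 3.52 in those of 36 to 60. On the arm it was 2.31, and the part of this difference was not tested. At a fold of 3 to 4 the share was 26.9% (23.1 to 31.1) on the arm, 17.1% on other chromosomes and 16.0% (13.5 to 18.9) in their sparse windows. From a fold of 4 upwards, with moved shares left in, the interval of the arm held the value of the other chromosomes in each class. The shares were 35.1% (28.9 to 42.0) against 31.6% at 4 to 5 and 41.2% (32.6 to 50.4) against 47.6% at 5 to 6. At 6 to 8 they were 61.8% (48.6 to 73.5) against 67.4%. At 8 or more, 25 of 31 control peaks of the arm were overlapped, or 80.6% (63.7 to 90.8), against 88.3%. With moved shares removed, the share below a fold of 3 was 17.0% on the arm, 7.62% in sparse windows elsewhere and 4.58% on all other chromosomes. The arm was also higher on this measure at 3 to 4, with 25.8% against 14.8% and 11.8%, and at 4 to 5, with 33.8% against 26.3% and 25.8%. Above that it was not higher than all other chromosomes, with 40.0% against 42.1% at 5 to 6, 59.6% against 62.9% at 6 to 8 and 80.5% against 86.0% at 8 or more. In sparse windows elsewhere the shares of these last 3 classes were 39.5%, 53.9% and 83.8%. Had each fold class of the arm been overlapped as on the other chromosomes, 23.1% of its control peaks would have been overlapped in place of 29.2%. With moved shares removed class by class, the values were 17.9% in place of 27.9%.

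**Figure D4:**
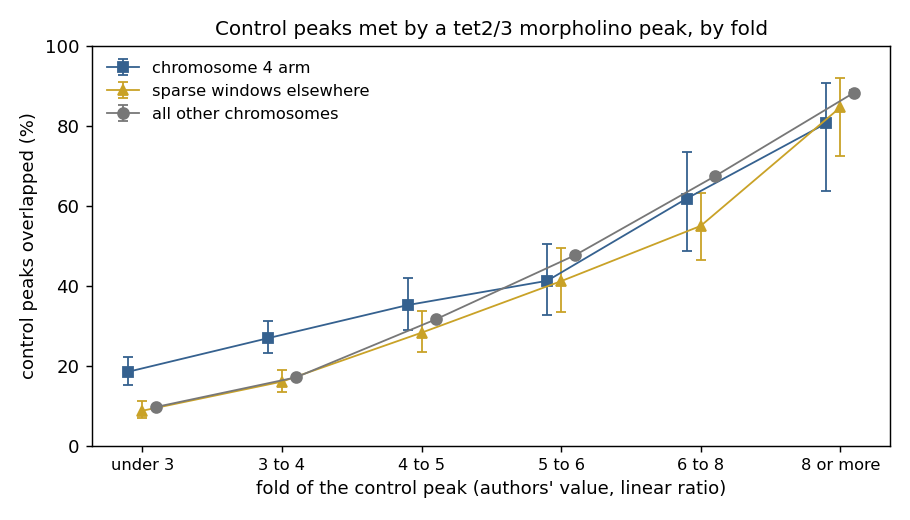
Share of control peaks overlapped by a tet2/3 morpholino peak (vertical axis, %) by fold of the control peak, for the arm (squares), windows of at most 60 control peaks on other chromosomes (triangles) and all other chromosomes (circles), with 95% Wilson intervals. Below a fold of 3 the arm stands at 18.5% and the others at 8.72% and 9.67%, and from 4 upwards the arm's intervals hold the values of all other chromosomes. Moved shares are not removed in this figure.

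Among these weak control peaks, the share differed most where the background was lowest. Where the background was within 2% of the lowest value, 39 of 129 were overlapped on the arm, or 30.2% (23.0 to 38.6), against 15 of 126 or 11.9% (7.35 to 18.7) in sparse windows elsewhere and 13.0% on all other chromosomes. At a background above 1.5 times the lowest, 28 of 156 were overlapped on the arm, or 17.9% (12.7 to 24.7), against 10.05% (6.67 to 14.9) in the sparse windows. Between these limits the shares were 10.3% (6.61 to 15.7) and 6.58% (4.35 to 9.85). The intervals of the arm and of the sparse windows were apart only in the class of lowest background.

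Peaks after knockdown without a control partner occurred at every strength on the arm. The sparse windows elsewhere are again those with at most 60 control peaks, and the arm is taken whole, its dense end part included. Their densities are therefore not matched. At a fold of 3 to 4, 40.3% (33.9 to 47.0) had none on the arm, against 32.6% (26.8 to 38.9) in sparse windows elsewhere and 13.7% on all other chromosomes. At 5 to 6 the shares were 14.3% (8.17 to 23.8), 15.6% (8.71 to 26.4) and 3.52%. At 8 or more, 3 of the 15 peaks of the arm had no partner, against 0 of 13 in the sparse windows, where the 95% interval reaches 22.8%, and 6 of 2552 on all other chromosomes. The 3 lay in 1 run of peaks that is described last.

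The strongest control peaks of the arm were mostly met after knockdown. The first, at 4:75077031-75077561, reached a fold of 12.3 from 104 fragments over a background of 7.53, and its partner after knockdown reached 5.23. The second, at 4:74894853-74895462, reached 11.3 from 98 fragments but lacked a partner. The third, at 4:43083864-43084753, reached 10.4, with a partner of fold 2.58. The fourth, at 4:51596441-51597268, and the fifth, at 4:74850653-74851088, both reached 10.2 from 86 fragments, with partners of fold 5.98 each. Thus 4 of the 5 were met, and 3 of the 5 lay in the dense end part. After the second, the strongest control peaks without a partner were at 4:74833235-74833603, with a fold of 9.14, and at 4:36778919-36779353, with a fold of 9.03. Both had the lowest control background.

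All 5 of the strongest peaks after knockdown met a control peak. The first, at 4:39928835-39929727, had a fold of 10.8 and met a control peak with a fold of 4.61. The second, at 4:50663695-50664249, had a fold of 9.59 and met one with a fold of 2.61. The third, at 4:76155117-76155653, had a fold of 9.20 and met one with a fold of 8.21. The fourth, at 4:31357342-31358153, had a fold of 8.91 and met one with a fold of 2.31. The fifth, at 4:75605413-75605656, had a fold of 8.71 and met one with a fold of 6.03. The control partners of the second and the fourth were below the median control fold of the arm, 3.39, while both partners from the dense end part were well above it.

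The 3 strongest peaks after knockdown without a control partner, at 4:31362612-31363142, 4:31368463-31369303 and 4:31377883-31378630, had folds of 8.18, 8.14 and 8.04 and belonged to 1 run of regularly spaced peaks. The run was singled out after its values had been seen. It comprised 12 peaks called after knockdown, each at most 10 kb from the next, over 34.6 kb at 4:31344018-31378630. Successive summits lay 2760 bp apart at the median, and 9 of the 11 steps measured between 2400 and 3200 bp, with 5243 and 3990 bp as the exceptions. Among 1756 runs of 8 or more such peaks on other chromosomes, 6 had steps as even or more so (coefficient of variation 0.264 here, 0.661 at the median there). The background under the run was high, at 2.14 times the lowest of its list at the median, and 4 of the 1756 runs reached that value. All 12 peaks were wide for the arm, between 478 and 841 bp, with folds from 3.37 to 8.91.

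In control the same 34.6 kb held 6 peaks, of which 5 met a peak of the run. Their folds were 2.05, 2.52, 2.31, 3.29, 2.67 and 2.67. Their pileups, between 32 and 53 fragments, lay near or above the control median of 33 on the arm, while their backgrounds were 1.51 to 3.30 times the lowest control background. After knockdown the scaled pileups ran from 22.7 to 56.4 fragments over backgrounds of 4.01 to 10. Both lists thus had raised background across the run. The control folds were all below the control median of the arm, and the folds after knockdown were above that list's arm median of 4.16 in all but the first peak. The window that holds the run, from 31 to 32 Mb, had 34 peaks after knockdown and 32 in control, of which the run supplied 12 and 6. It was the only full window of the arm with more peaks after knockdown than in control, and none of the 1258 windows on other chromosomes had more. The part of the raised background in the run was not tested.

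**Figure D5:**
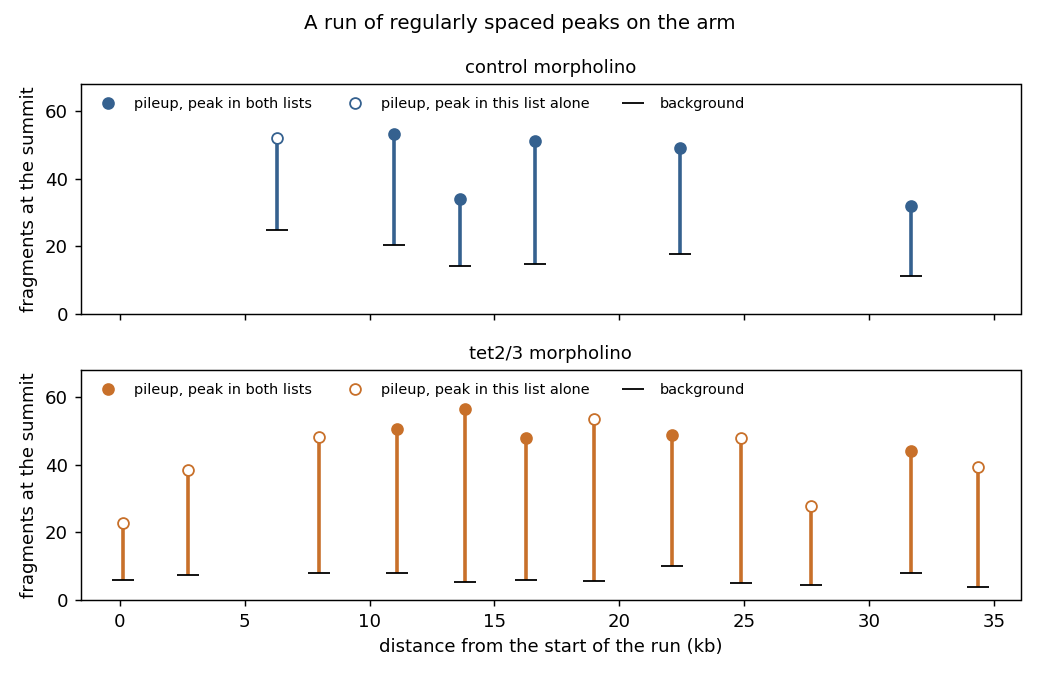
Pileup (circles) and local background (dashes) in fragments at the summit of each peak of the run, by distance from its start in kb. Control is at the top and tet2/3 morpholino embryos, after the estimated scaling, at the bottom. Filled circles are peaks found in both lists, open circles peaks of 1 list alone. The 12 tet2/3 morpholino summits follow at steps of 2760 bp at the median. The 6 control summits stand over backgrounds of 11.3 to 24.9 fragments. Fragment numbers are not compared between the panels because scaling and lowest background differ.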

How the data were processed

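5hmC peak lists of 2 pull-downs were used, each assigned to its group by its sample record. Bowtie2 2.2.6, MACS2 2.2.7.1 and deepTools, with the builds GRCz11 and danRer11, are named in the submitters' processing notes. The sources used here do not state the settings, or whether embryos were pooled. The deposited score is 10 times the −log10 q-value, cut to a whole number. The deposited fold is a ratio of pileup to background at the summit, and the −log10 p-values and −log10 q-values deposited by the authors come from the peak caller. Read totals are not given in the files.

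Peaks were counted, overlapped (at least 1 bp), moved and placed in 1 Mb windows with Python 3.11.15, numpy 2.4.6, pandas 2.3.3 and scipy 1.17.1 (figures: matplotlib 3.10.9). Coordinates are 1-based. Moved shares are means of 4 moves (20 and 50 kb, either side), removed as the excess over the moved share divided by its complement. Pileup and background were solved from fold and p-value under a Poisson model, with 1 added to each in the fold. Control pileups were taken unscaled, and the scale after knockdown, 0.474, was estimated as the value of smallest misfit. All peaks on the 25 chromosomes were solved within a relative misfit of 0.001. The solving step was checked on simulated data of known scale, which does not check the estimate of the scale. Intervals are 95% Wilson intervals and cover counting error only.

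The boundary, members and measures were chosen with earlier results of these data known. Regions were named by rule: the 5 highest folds, widest peak, boundary peaks, 3 highest folds without a partner, fullest windows, longest stretches without a peak and largest groups in each list. The alternatives were other boundaries, thresholds, overlaps, list lengths, moves and window sizes. No gene list was used.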

Additional observations from a re-analysis of the deposited data

How the results depend on the processing

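Of 84 values of the arm recomputed under 13 other settings, 56 stayed close to the reported ones and 28 moved. Those under boundaries at 28 or 32 Mb, without the last 2 Mb, under moves of 20 or 50 kb alone and under windows of 0.5 or 2 Mb were all among the 56. So were those without the run at 31 Mb, a setting chosen after seeing the data. At a −log10 q of at least 5, 1035 control peaks, counted as close, and 270 peaks after knockdown remained. The ratio was 3.83, and 19.4% of control peaks were overlapped (18.6% with moved shares removed). Peaks without a partner came to 24.1% (25.05%), median widths to 354 and 330 bp, and median gaps to 21040 and 48829 bp. With folds under 4 left out, 402 and 321 peaks remained, a ratio of 1.25, with 61.4% without a partner (62.6%), widths of 435 and 304 bp and gaps of 42237 and 46219 bp. An overlap of 50% of both intervals gave 17.3% of control peaks (17.0%) and 60.1% without a partner (60.7%). A distance within 500 bp gave 31.8%, 22.2% and, with moved shares removed, 24.4%. The control list shortened to the length of the other list gave 47.9% and 74.4%, and with it control peaks were overlapped less often on the arm than in the first 30 Mb (57.0%) or on other chromosomes (57.9%); 288 control peaks were left on the arm, 0.499 for each peak after knockdown. Stricter thresholds lower the numbers by construction.

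The share without a partner was higher on the arm than on the other chromosomes under each of these settings, at 24.1% against 6.87% for the q-value, 61.4% against 23.1% for the fold, 60.1% against 51.5% for 50% overlap, 22.2% against 6.97% within 500 bp and 74.4% against 37.4% for the shortened list. Of 1331 control peaks on the arm and 218577 on other chromosomes, the q-value left 1035 and 184894, the fold 402 and 98081, and the shortened list 288 and 78264. These 3 settings removed a larger part of the control peaks on the arm than on other chromosomes. The shortened list cut control peaks alone, which leaves more peaks without a partner by construction. The q-value and fold limits cut both lists, and the part of these cuts in the shares was not tested. None of the settings was applied to the sparse windows elsewhere, so these values do not show a trait of the arm beyond its sparseness. No replicate could be left out. No paired analysis was possible because neither pull-down has a replicate. Read totals are not in the lists, and the part of depth in these results was not tested.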

Other observations

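The longest stretch of the arm without a peak in either list ran from 45614488 to 46561296 on chromosome 4, over 947 kb. The longest stretch without a control peak, at 4:45614488-46671346, measured 1057 kb and held 1 peak called after knockdown. The longest without a peak after knockdown, at 4:45087469-46561296, measured 1474 kb and held 8 control peaks. The second longest after knockdown, at 4:62199613-63285190, measured 1086 kb and held 23 control peaks.

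Runs of 8 or more control peaks, each at most 10 kb from the next, occurred on the arm only beyond 74 Mb, where there were 12. The one with most peaks held 20 control peaks over 48.8 kb at 4:77931223-77979977, where 18 peaks were also called after knockdown at 4:77931238-77977098. The next held 18 control peaks over 70.6 kb at 4:77478887-77549511, of which 11 had no partner. After knockdown there were 4 runs of this kind on the arm, at 31, 70 and, with 2 of them, 77 Mb.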
